A study of Mus musculus with 21 samples.

Results

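The genes described here moved in opposite directions in 2 mouse models of liver cancer, each tumour group being measured against the liver of its own genotype. All 21 arrays of the series entered the comparison, 1 array per RNA sample and 18 mice in all. For every gene the tumour effect of the knockout model (Trp53 ko tumour minus Trp53 ko liver) was set against the tumour effect of the carcinogen model (DEN tumour minus Trp53 wt liver). The difference between both effects is a model-specific effect. Of 23717 genes tested, 448 passed the threshold in both effects with opposite signs.

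All mice were of the C57BL/6J background strain. The DEN tumours were hepatocellular carcinomas of mice with wild-type Trp53 that had received N-nitrosodiethylamine by intraperitoneal injection, 10 µg per g of body weight at day 15 (7 arrays, 5 mice). Their reference was liver of untreated Trp53 wt mice (4 mice). The knockout tumours were labelled as hepatocellular and cholangiocellular carcinoma and came from untreated Trp53 ko mice (6 arrays, 5 mice), and their reference was liver of untreated Trp53 ko mice (4 mice). The DEN tumours thus differ from their reference in the injection as well as in being tumours, and the knockout tumours do not. The sources used here do not give the cells in which Trp53 was deleted, nor the ages and sexes of the mice. Below, the groups are called DEN tumours, wt livers, ko tumours and ko livers.

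Trp53 encodes p53, a transcription factor that halts the cell cycle or triggers cell death after DNA damage. DEN is turned into a DNA-alkylating agent by cytochrome P450 enzymes of hepatocytes, and given to young mice it leads to hepatocellular tumours. Hepatocytes also carry a sex-biased programme: the pulses of growth hormone in males and its steadier level in females set many P450 enzymes and sulfotransferases to different levels in the sexes. A change between tumour and liver therefore depends on the state of the reference liver as much as on the tumour.

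Levels are log2 processed intensities relative to the 75th percentile of each array, so a level below 0 lies under that percentile, and effects are differences of such levels (1 unit is a doubling), given ± SE. Tests are from limma over all genes and 18 mice, with Benjamini-Hochberg adjustment and an adjusted p threshold of 0.05. Fits with the slide as a random block used all 21 arrays instead. In them tumours of the same mouse entered separately, with no term for the mouse. Nothing in the labels says how the animals were drawn, so p-values measure only the spread between these samples. In bulk tissue, fewer cells of a type and less RNA per cell cannot be told apart. The 75th percentile of the intensities was 475.8 to 728.9 in wt livers, 499.6 to 684.9 in ko livers, 511.8 to 884 in DEN tumours and 951.5 to 4258 in ko tumours, and from 51.1% to 56.6% of probes were well above background in ko livers, against 65% to 82.4% in DEN tumours. The Trp53 probe followed the labels in the livers, at -3.85, -3.72, -3.39 and -3.31 in wt livers against -6.46, -4.91, -5.91 and -5.01 in ko livers. No slide held more than 1 group. All wt livers lay on 1 slide scanned on a day of its own, and all ko livers lay on another slide. Slide and group therefore cannot be told apart for either reference liver. Ko tumour mice 1 and 2 lacked Y-linked signal, which the other 16 mice had.

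The model-specific difference passed the threshold in 7326 genes (30.9% of those tested). It was positive, more upward or less downward in the ko model, in 3002 (12.7%) and negative in 4324 (18.2%). With the slide as a random block these shares were 1.34% and 2.01%. The median over all genes was -0.22 for the ko effect, 0.04 for the DEN effect and -0.25 for their difference, so directions below are best read against these shifts. Of the differences past the threshold 59.0% were negative, against 48.4% after normexp background correction with quantile normalization, which brought the medians to -0.01, 0.02 and -0.01. Ko tumours differed from ko livers in 5108 genes upward (21.5%) and 6996 downward (29.5%). DEN tumours differed from wt livers in 2500 upward (10.5%) and 2588 downward (10.9%).

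Genes that moved the same way outnumbered those that moved apart. Of 3515 genes past the threshold in both effects, 3067 moved the same way: 1291 rose in both (5.44% of genes tested) and the rest fell in both (7.49%). The opposite genes were 12.75% of the 3515: 146 rose in ko tumours and fell in DEN tumours (0.616% of genes tested), and 302 fell in ko tumours and rose in DEN tumours (1.27%). Without wt liver mouse 2 these counts were 91 and 181, and without the bright slide, which held ko tumour mice 4 and 5, they were 288 and 569. Across all genes the effects had a Pearson r of 0.41 and a Spearman rho of 0.35, as a description, since genes are not independent.

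**Figure D1:**
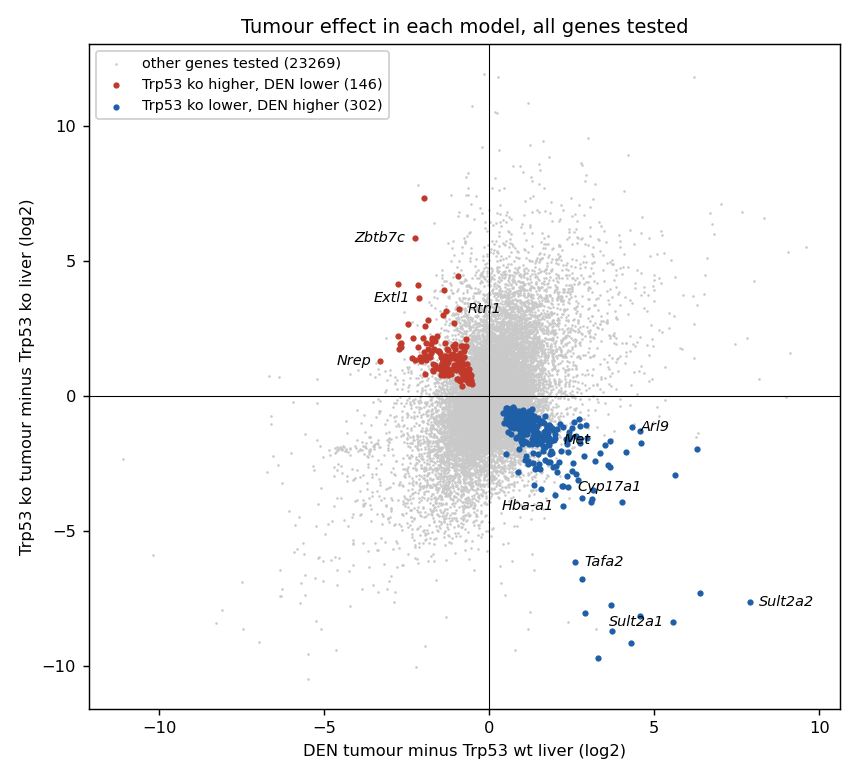
Tumour effect in the DEN model (x axis, log2) against the tumour effect in the Trp53 ko model (y axis, log2), 1 point per gene tested. The 146 genes higher in ko and lower in DEN tumours lie at the upper left, the 302 lower in ko and higher in DEN tumours at the lower right, with Sult2a2 and Sult2a1 far from the rest.

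An effect is a tumour level minus a liver level, so the model-specific difference is the gap between the tumours (ko minus DEN tumour) minus the gap between the livers (ko minus wt liver). In most opposite genes the tumour gap was the larger. Among the 146 genes up in ko and down in DEN tumours, 128 were higher in ko than in DEN tumours (background 19.8% upward) and 1 was lower (37.5% downward). Among the 302 genes of the other pattern, 289 were lower in ko than in DEN tumours and 0 higher, with 0 higher also at an unadjusted limma p under 0.05. The choice of members largely sets these counts, since the same tumour levels enter the effects, so they are a description and no separate evidence.

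The livers differed too. Ko livers were lower than wt livers in 55 of the 146 (6.67% of genes tested were lower) and higher in 0 (1.83% higher over all genes). At an unadjusted limma p under 0.05 these counts were 88 and 0. Ko livers were higher in 54 of the 302 and lower in 2, and at an unadjusted p under 0.05 in 85 and 18. The liver gap exceeded the tumour gap in 42 of the 146 and 39 of the 302, against 12.59% of all genes with a called difference. These shares follow in part from the choice of members, since the same liver levels enter the effects.

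Each tumour group was also set against the liver of the other genotype. Then 34 of the 146 and 140 of the 302 stayed opposite and past the threshold in both effects. Over all 23717 genes tested, 300 and 2254 met this criterion in the same directions, so the background differed between the patterns. The plot of liver and tumour gaps shows how far the livers stood apart in the others. With the slide as a random block (consensus correlation 0.382), 0 of the 146 and 2 of the 302 remained past the threshold in both effects, namely Sult2a1 and Sult2a2. At an unadjusted p under 0.05 in both, limma with the slide block gave 55 and 104 genes, of which 55 and 102 belonged to the 146 and 302.

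**Figure D2:**
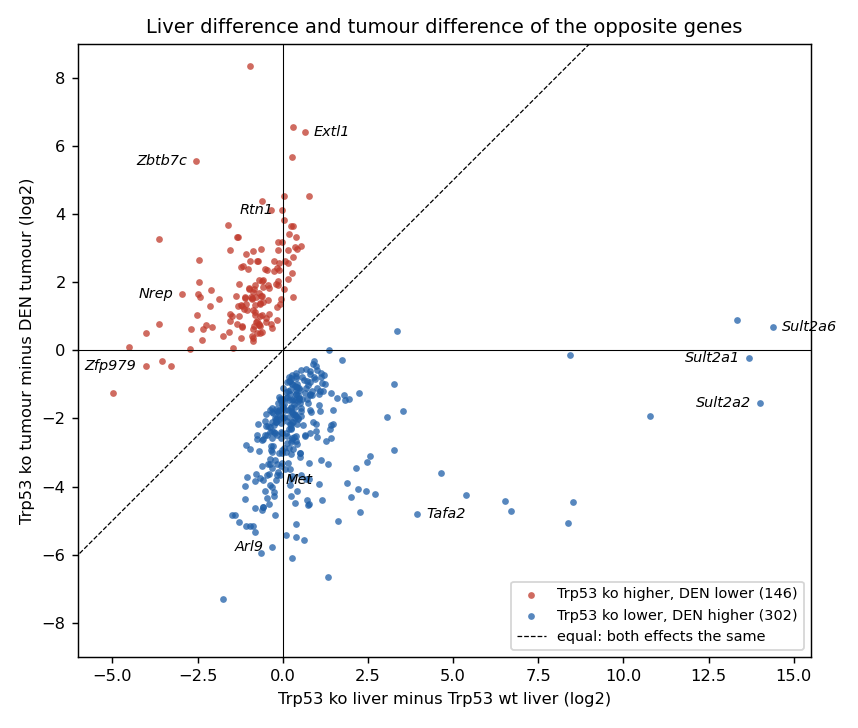
Gap between the livers (ko minus wt, x axis, log2) and gap between the tumours (ko minus DEN, y axis, log2) of the 448 opposite genes; on the dashed line both effects would be equal. Most genes are spread along the y axis, while the Sult2a genes lie far to the right, with liver gaps of 13.69 to 14.38 for Sult2a1, Sult2a2 and Sult2a6.

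The largest opposite movement was in the Sult2a cluster on chromosome 7, which encodes sulfotransferases that act on hydroxysteroids and bile acids. Sult2a2 (probe at chr7:14364926-14364985, build mm9) read -7.00, -6.43, -6.81 and -5.87 in wt livers and 2.98, 0.37, -1.17, 3.0 and 1.75 in DEN tumours. It read 7.37, 7.53, 7.54 and 7.44 in ko livers and -1.83, -1.81, -0.14, 2.69 and 0.31 in ko tumours. Wt livers were lowest, ko livers highest, and both tumour groups lay between them and overlapped each other. The gene fell by 7.62 ± 0.87 in the ko model (adjusted limma p 2.5e-06) and was in DEN tumours at least 199-fold above the wt livers, where no array was well above background. The difference of effects was -15.54 ± 1.23 (adjusted p 1.9e-06, and 0.00064 with the slide block). The tumours themselves differed by -1.54 (adjusted p 0.12) and the livers by 14 (adjusted p 4e-07).

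Sult2a1 had a difference of -13.93 ± 1.28 and Sult2a6 of -13.68 ± 1.66, on liver gaps of 13.69 and 14.38. Sult2a4, which did not meet the rule for named genes and was added after its values were seen, had -12.44 on a liver gap of 13.33. For Sult2a6 the fitted ko effect was -7.29 ± 1.17 and the DEN tumours were at least 54.5-fold higher than the wt livers, and its other 2 probes moved the same way in both models. In wt livers 1 of 4 arrays measured Sult2a1 above background and none did Sult2a4. In each of these genes the mean of both tumour groups lay between the means of the livers. Probes of this family may read each other's transcripts, so the members are not separate evidence.

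Cyp17a1, a P450 enzyme of steroid synthesis (chr19:46742594-46743207), was at -0.23, -0.37, -0.34 and 0.30 in wt livers and at 1.74, 3.85, 2.63, 1.06 and 1.88 in DEN tumours. Ko livers were at 1.94, 2.56, 2.50 and 2.27 and ko tumours at -1.08, -1.76, -1.21, -0.30 and -0.85. DEN tumours overlapped ko livers, and ko tumours overlapped wt livers. The ko effect was -3.35 ± 0.42, the DEN effect 2.39 ± 0.42 and the difference -5.74 ± 0.60 (adjusted limma p 1.8e-05, slide block 0.013).

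Female-biased liver genes as a list shared the negative difference, while 5 of the 13 tested moved in opposite directions. All 13 tested of 14 had a negative difference past the threshold, with a median of -7.13 against -0.25 over all genes. Of all genes tested, 18.2% had a negative difference, 29.5% fell in the ko model and 10.5% rose in the DEN model. Falls in ko with rises in DEN tumours made up 1.27%, and 1.83% were higher in ko than in wt livers. In the ko model 12 fell and 1 rose, Prom1, a surface protein also used as a marker of progenitor cells. In the DEN model 6 rose. Among the 5 that moved in opposite directions were Cyp17a1, Cyp2b9, Cyp2b13 and Sult2a1. Cyp2b13, a P450 enzyme, had effects of -9.69 and 3.30, with DEN tumour mouse 2 at -3.45 inside the wt liver range of -4.85 to -3.26, and its signal passed background on 2 of 4 wt liver and 3 of 6 ko tumour arrays. Ko livers were higher than wt livers for 12 of the 13 (median 5.17), and the list's summed level ran from 9.37 to 9.50 in ko livers and from 7.17 to 7.63 in wt livers, without overlap. Y-linked signal was present in all mice of both liver groups. With the slide block 12 of the 13 kept a negative difference past the threshold, but only 2 rises in the DEN model, 1 liver gap and 1 opposite movement passed. After normexp with quantile normalization all 13 kept the negative difference.

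Male-biased liver genes had the opposite sign of difference and no opposite movement. Of 11 tested, 7 had a positive difference and 1 a negative one, Serpina1e, which encodes an antitrypsin-like serum protein (median 4.31). In the DEN model 8 fell, and ko livers were lower than wt livers for 8 (median -4.88). Of all genes tested, 12.7% had a positive and 18.2% a negative difference. In the DEN model 10.9% of all genes fell, and 6.67% were lower in ko livers. Hsd3b5, a steroid dehydrogenase of male liver, was at 6.64, 6.26, 5.97 and 5.13 in wt livers, at -7.90, -7.50, -7.73, 1.13 and -3.51 in DEN tumours and at -5.48, -6.41, -6.33 and -5.29 in ko livers. It was not well above background on any array of either ko group, so the ko model allows no fold for it. Slco1a1, an organic anion transporter, fell by 6.38 ± 0.71 in the DEN model and was likewise not above background in ko livers. The slide block left limma's adjusted p of the difference above the threshold for all 11 (2 positive and 1 negative at an unadjusted p under 0.05). With it 2 falls in the DEN model and 0 liver gaps passed (8 and 7 unadjusted).

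Tafa2, Zdhhc22, Nipal1, Cyp39a1, Rcan2 and Nt5e also fell in ko and rose in DEN tumours, on a called liver gap. Tafa2 encodes a secreted chemokine-like protein (chr10:123177891-123177950). Its levels were -2.63, -1.51, -1.72 and -1.39 in wt livers, 1.31, 0.47, 1.34, -0.68 and 1.57 in DEN tumours, 1.91, 2.15, 2.37 and 2.08 in ko livers and -5.23, -4.50, -3.33, -3.81 and -3.20 in ko tumours. By mouse, the 4 groups did not overlap, with ko livers highest and ko tumours lowest. A single tumour of ko tumour mouse 5 (-1.92) lay within the wt liver range. The ko effect was -6.14 ± 0.46 and the DEN effect 2.61 ± 0.46 (difference -8.76 ± 0.65, adjusted limma p 1.4e-06, slide block 0.0042), on a liver gap of 3.94.

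Zdhhc22, a palmitoyltransferase, had a difference of -7.00 ± 0.86 and Nipal1, a magnesium transporter, of -6.17 ± 0.74. Zdhhc22 read -0.10 in ko liver mouse 3 and 2.22 to 2.57 in the other ko livers, so that 1 animal lay apart. Cyp39a1, an oxysterol hydroxylase of bile acid synthesis, had effects of -3.66 and 2.0. Rcan2, a regulator of calcineurin, had -3.45 and 1.58. Nt5e, the ectoenzyme that forms adenosine from AMP, had -2.44 and 1.84, and its difference was no longer past the threshold with the slide block (adjusted p 0.083). For Nt5e the tumours differed by only -1.0 (adjusted p 0.087), against a liver gap of 3.28.

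Haemoglobin genes fell in ko tumours and rose in DEN tumours. Hba-a1, an alpha-globin gene (chr11:32183955-32184014, mm9), was at 5.29, 3.87, 5.01 and 5.29 in wt livers and 8.34, 7.54, 6.53, 6.68 and 6.46 in DEN tumours. It was at 7.64, 7.56, 4.78 and 7.54 in ko livers and 2.34, 2.41, 1.20, 3.76 and 4.35 in ko tumours. Ko tumours were lowest, though ko tumour mouse 5 lay within the wt liver range, and ko liver mouse 3 lay with the wt livers. The effects were -4.07 ± 0.67 and 2.25 ± 0.67 (difference -6.31 ± 0.95, adjusted limma p 0.00026, slide block 0.038), and the liver gap of 2.01 did not pass the threshold (adjusted p 0.089). Hba-a2 had effects of -3.29 and 1.37, Hbb-b2 of -3.82 and 3.1, and Hbb-bt, named after its values were seen, of -3.76 and 2.80.

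The alpha-globin genes are near-identical copies, so that their probes may share signal. Their promoter windows (RefSeq, GRCm38.p6, the 250 bases before each start, plus strand, chr11:32283422-32283671 and chr11:32296242-32296491) share a run of 247 bases and are shown because the genes moved together. Capitals mark the letters CCAAT or their reverse complement ATTGG, searched on both strands, which 33.8% of the 32851 windows of this length hold.
Hba-a1: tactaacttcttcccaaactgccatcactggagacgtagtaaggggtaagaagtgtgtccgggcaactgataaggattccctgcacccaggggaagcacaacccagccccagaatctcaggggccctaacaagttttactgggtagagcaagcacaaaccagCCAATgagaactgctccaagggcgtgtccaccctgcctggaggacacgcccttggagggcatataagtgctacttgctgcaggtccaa
Hba-a2: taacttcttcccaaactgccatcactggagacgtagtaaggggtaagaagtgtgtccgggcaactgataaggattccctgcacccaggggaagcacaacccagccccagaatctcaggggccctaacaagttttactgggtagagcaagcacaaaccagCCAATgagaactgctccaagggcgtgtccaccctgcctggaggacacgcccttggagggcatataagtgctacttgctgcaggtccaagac
Other markers of red cells did not all follow. Of 5 tested of 8, 3 had a negative difference (Hba-a1, Hbb-b2 and Slc4a1, the anion exchanger of the red cell membrane). The share over all genes tested was 18.2%. Alas2, the haem-forming enzyme of red cell precursors, fell by 3.24 in the ko model and had a DEN effect of -1.58 (adjusted p 0.051). The summed level of the 5 markers ran from 2.31 to 4.78 in ko tumours, 4.82 to 5.99 in wt livers, 6.76 to 8.64 in DEN tumours and 5.06 to 7.94 in ko livers. The part of blood content in these values was not tested.

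Other genes fell in ko tumours and rose in DEN tumours while the livers were close to each other. Arl9, a small GTPase of the ADP-ribosylation factor family (chr5:77436372-77436431), was at -2.59, -2.64, -1.49 and -2.14 in wt livers and at -2.74, -2.61, -2.39 and -2.33 in ko livers. It was at 2.65, 2.01, 2.83, 1.43 and 1.56 in DEN tumours and -3.27, -4.25, -3.21, -3.58 and -4.08 in ko tumours. Every DEN tumour mouse lay above all livers and every ko tumour mouse below them. The DEN effect was 4.32 ± 0.33 (adjusted limma p 3.5e-07), the ko effect -1.16 ± 0.33 (adjusted p 0.0069) and the difference -5.47 ± 0.46 (slide block 0.013), with a liver gap of -0.30.

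Rasgrp2, an exchange factor that activates the small GTPase Rap (chr19:6403507-6403563), was at 2.10, 1.34, 1.98 and 1.76 in wt livers, 4.73, 2.82, 4.71, 4.11 and 5.16 in DEN tumours, 2.59, 2.35, 2.72 and 2.62 in ko livers and -1.13, -1.48, -0.48, 1.99 and 0.02 in ko tumours. DEN tumours lay above all livers, and ko tumour mouse 4 alone lay within the wt liver range. The difference was -5.30 ± 0.79 (adjusted limma p 0.00025, slide block 0.020).

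Met, the receptor of hepatocyte growth factor (chr6:17503299-17503358), was chosen after the data were seen, by its opposite movement against both livers. It was at -1.04, -1.22, -0.70 and -1.21 in wt livers and -1.31, -1.31, -1.31 and -1.0 in ko livers. It rose to 0.30, 0.63, 2.21, 0.83 and 0.69 in DEN tumours and fell to -2.86, -3.19, -2.97, -2.10 and -3.26 in ko tumours. By mouse, neither tumour group overlapped either liver group. The ko effect was -1.64 ± 0.32 and the DEN effect 1.98 ± 0.32, each with an adjusted limma p of 0.0004, and the difference was -3.62 ± 0.45 (slide block 0.026).

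By the same later choice, 6 more genes fell in ko and rose in DEN tumours against either liver. Ctcfl, a germline relative of the chromatin protein CTCF, had effects of -2.69 and 1.38 (difference -4.06 ± 0.45). Pramel25, of a family expressed mainly in germ cells, had -2.17 and 1.85. Fbxw27, an F-box protein, had -2.62 and 1.93, and Sult4a1, a sulfotransferase-like protein of the brain, -1.72 and 1.79. Ptpn5, a tyrosine phosphatase, and Alox12b, a lipoxygenase of skin, had differences of -2.83 and -2.84. Trp73, a p53 relative named after its values were seen, also did, with effects of -0.77 and 0.85 (difference -1.62). Trp63, the other relative, had -0.97 and 0.80 (difference -1.77) against each model's own liver, on a called liver gap. Mice of tumour and liver overlapped in both models for Sult4a1 and in the DEN model for Fbxw27 and Ptpn5. Fbxw27 was well above background on 3 of 6 ko tumour arrays. Slide-block adjusted limma p of the difference were 0.11 for Sult4a1, 0.086 for Ptpn5 and 0.056 for Fbxw27, while Ctcfl, Pramel25 and Alox12b passed. With a gene's probes averaged, Ptpn5, Sult4a1 and Alox12b lost a call.

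**Figure D3:**
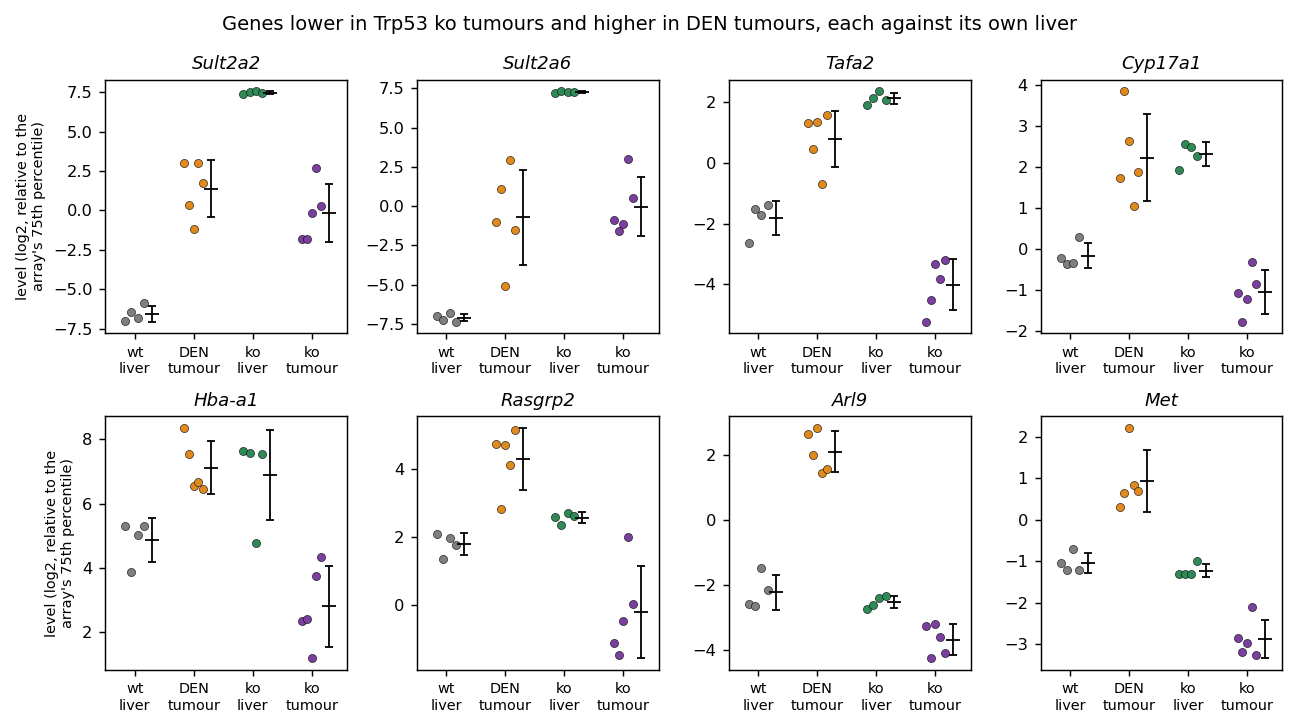
Level of 8 genes lower in ko and higher in DEN tumours, 1 point per mouse (log2 relative to the array's 75th percentile), with mean and SD beside each group of 4 or 5 mice. Sult2a2, Sult2a6 and Tafa2 differ strongly between the livers, while Arl9 and Met have livers at similar levels and tumours on either side.

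Further members did not meet the rule, since mice of tumour and liver overlapped or a probe was dim, and were picked from their values. Igfbp1, a liver-secreted binding protein of insulin-like growth factors, was at 1.47 to 3.06 in wt livers and 8.03 to 8.85 in DEN tumours, and at 4.78 to 7.85 in ko livers and 2.51 to 6.14 in ko tumours. Its effects were -1.96 and 6.31, with ko groups that overlapped. Sult1e1, the oestrogen sulfotransferase, had -2.94 and 5.63, with 1 of 4 wt liver arrays well above background, and Apoa4, an apolipoprotein of triglyceride-rich particles, -2.07 and 4.14.

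Among genes that rose in ko tumours and fell in DEN tumours no difference was as large as those of Sult2a1, Sult2a2 and Sult2a6. Zbtb7c, a zinc finger transcription factor (chr18:76307764-76307823, mm9), had the largest among the 15 genes the rule named. It was at -4.09, -4.46, -3.70 and -4.32 in wt livers and -7.93, -4.57, -7.80, -5.22 and -6.47 in DEN tumours. It was at -6.71, -6.46, -6.38 and -7.22 in ko livers, none of them well above background, and at -0.70, -0.94, -1.44, -0.28 and -0.82 in ko tumours. Ko tumours were the highest group by a wide margin, and DEN tumours reached down to the ko livers. The level of Zbtb7c in ko tumours was at least 45.9-fold that in ko livers (adjusted limma p 3.8e-07) and fell by 2.26 ± 0.55 in the DEN model (adjusted p 0.0072). The difference was 8.12 ± 0.77 (slide block 0.0074).

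Extl1, a glycosyltransferase related to those of heparan sulfate synthesis (chr4:133912503-133912562), was at -2.90, -2.40, -2.44 and -2.22 in wt livers and -3.00, -3.97, -6.83, -4.23 and -5.10 in DEN tumours. Ko livers were at -2.31, -1.47, -1.79 and -1.82 and ko tumours at 2.61, 2.30, 1.88, 1.79 and 0.29. The livers partly overlapped, ko tumours lay above them and DEN tumours below them. The effects were 3.62 ± 0.58 and -2.13 ± 0.58 (difference 5.76 ± 0.83, adjusted limma p 0.00019, slide block 0.026).

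Rtn1, a reticulon of the endoplasmic reticulum (chr12:73313276-73313335), had livers at one level. Wt livers read -0.75, -0.16, -0.90 and -0.48 and ko livers -0.65, -0.38, -0.43 and -0.87, while DEN tumours read -1.65, -1.16, -2.14, -1.05 and -1.50 and ko tumours 3.06, 2.98, 2.84, 2.17 and 2.07. By mouse, neither tumour group overlapped a liver group. A single tumour of DEN tumour mouse 4 (-0.28) lay within the wt liver range and above the ko livers. The ko effect was 3.21 ± 0.26 (adjusted limma p 1.3e-07), the DEN effect -0.92 ± 0.26 (adjusted p 0.019) and the difference 4.13 ± 0.37 (slide block 0.013), with a liver gap of -0.01. With the slide block the adjusted limma p was 0.00041 for the ko effect and 0.53 for the DEN effect.

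Gna14, Scml4, Whrn and Smim6 also rose in ko tumours and fell in DEN tumours. Gna14, an alpha subunit of a G protein that activates phospholipase C (chr19:16685197-16685256), was at -2.60, -2.10, -2.10 and -2.53 in wt livers, -5.33, -4.67, -6.30, -4.07 and -5.19 in DEN tumours, -3.37, -2.45, -2.67 and -3.27 in ko livers and 0.07, 1.19, -0.77, -1.77 and -2.38 in ko tumours. By mouse, DEN tumours were lowest without overlap, and ko tumour mouse 5 lay within the wt liver range. A single tumour of DEN tumour mouse 4 (-2.80) lay within the ko liver range. The effects were 2.21 ± 0.57 and -2.78 ± 0.57 (difference 4.99 ± 0.81, slide-block adjusted limma p 0.057). Scml4, of a Polycomb-related family, had 3.94 and -1.38, Whrn, a scaffold protein of sensory cells, 2.81 and -1.85, and Smim6, a small membrane protein, 2.06 and -1.72. A second Scml4 probe had 1.12 and -0.18, and a second Whrn probe had the opposite sign in the DEN model. With a gene's probes averaged, Scml4 and Whrn lost a call.

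Genes of the cell surface and matrix were among those that rose in ko and fell in DEN tumours against either liver, again a choice made after the data were seen. Lamb3, a chain of the basement membrane protein laminin, had effects of 1.70 and -1.24 (difference 2.94 ± 0.47). It was at -1.45, -0.80, -2.21 and -1.19 in wt livers, -2.98, -1.75, -3.12, -2.70 and -2.68 in DEN tumours, -1.17, -1.07, -1.09 and -0.71 in ko livers and 0.56, 0.50, 0.93, -0.02 and 1.48 in ko tumours. All ko tumours lay above all livers, and 1 DEN tumour mouse lay within the wt liver range. Efemp1, a matrix glycoprotein of the fibulin family, had 1.31 and -2.06, Sulf2, which trims sulfate from heparan sulfate, 1.59 and -1.49, and Sspn, a membrane protein of the dystrophin complex, 1.42 and -1.16. For Efemp1 ko tumour mice 1 and 2 (0.90 and 1.03) lay within the ko liver range (0.47 to 1.26). For Sulf2 ko tumour mouse 4 (-1.23) lay below every ko liver (-1.13 to -0.76). With the slide block limma's adjusted p of the difference was 0.13 for Efemp1, 0.086 for Sulf2 and Sspn and 0.046 for Lamb3.

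In another set the wt livers stood out. Nrep, a protein of regenerating neurons and fibroblasts (chr18:33597298-33597357), was at -0.46, -0.88, 0.09 and 0.54 in wt livers and -5.00, -3.50, -4.13, -2.05 and -2.77 in DEN tumours. It was at -2.95, -3.21, -2.47 and -3.89 in ko livers and -1.95, -1.38, -1.74, -1.59 and -2.45 in ko tumours. Both tumour groups and the ko livers lay below every wt liver. The effects were 1.31 ± 0.48 (adjusted limma p 0.032) and -3.31 ± 0.48 (adjusted p 0.00017), the difference 4.62 ± 0.68 (slide block 0.069) and the liver gap -2.95.

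The wt livers had the highest mean also for Cadm4, a cell adhesion molecule (effects 2.15 and -2.0, liver gap -2.48), Pim1, a kinase of cytokine signalling (1.82 and -2.16, liver gap -2.42), and Gnai1, an inhibitory G protein subunit (1.32 and -2.25, liver gap -2.52). Zfp979, a zinc finger protein, had 1.46 and -2.10 on a liver gap of -4.03, the largest among the 15, and its tumours differed by -0.47 (adjusted limma p 0.33). Col5a3, a collagen chain, had 1.49 and -1.85 on a liver gap of -2.70, and its tumours differed by 0.64 (adjusted p 0.11). Tspyl4, of the nucleosome assembly protein family, had 1.45 and -1.95. For these genes the ko effect turned negative when the wt livers served as the reference. Atrnl1, an attractin-like membrane protein, had effects of 1.44 and -1.99 and ko tumours at the highest mean, with a liver gap of -1.03 that missed the threshold (adjusted p 0.051).

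A pair of members outside the rule are named from their values. Spib, a transcription factor of lymphocytes and of specialised gut epithelium, was at 5.32, 6.26, 4.42, 3.20 and 3.68 in ko tumours against -2.92 to -2.69 in ko livers, and its DEN effect was -1.97 (difference 9.31, the largest of the 146). Serpine2, a secreted protease inhibitor, had effects of 4.14 and -2.75, with 1 of 4 ko liver arrays well above background. In both, DEN tumours overlapped wt livers.

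**Figure D4:**
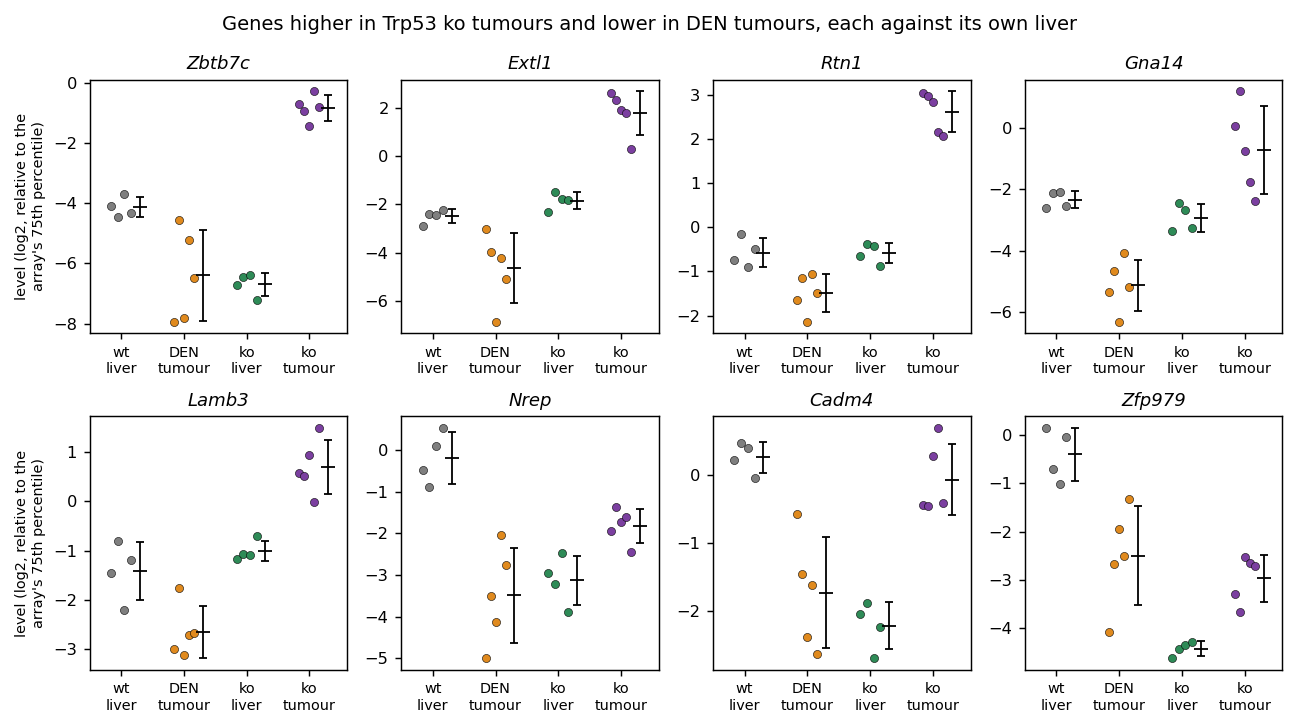
Level of 8 genes higher in ko and lower in DEN tumours, 1 point per mouse (log2 relative to the array's 75th percentile), with mean and SD beside each group of 4 or 5 mice. Ko tumours stand above both livers for Zbtb7c, Extl1, Rtn1 and Lamb3, while for Nrep, Cadm4 and Zfp979 the wt livers lie above the ko livers.

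Size and detection varied within both patterns. The difference ranged from 0.97 to 9.31 in size over the 146 and from 0.98 to 15.54 over the 302, with medians of 2.60 and -2.48. Both effects were at least 2-fold in 78 of the 146 and 156 of the 302. Mice of tumour and liver did not overlap in either model for 75 of the 146 and 146 of the 302. Over all genes tested, called or not, 0.595% and 1.01% met this criterion in the same directions, and the choice of members used these contrasts. The ko livers were not above background on any array for 34 of the 146 and the DEN tumours for 13, while of the 302 the ko tumours were not above background for 35 and the wt livers for 45. For those genes the fitted size is no measured fold. A symbol in the RefSeq table, unnamed models (Gm, Rik, LOC and the like), Y-linked genes and Xist aside, was held by 91 of the 146 and 182 of the 302.

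Some genes of known pathways also moved in opposite directions. Among 19 genes of cholesterol and fatty acid synthesis, 17 had a negative difference (median -2.36). In the ko model 18 fell and 1 rose, and in the DEN model 3 rose and 3 fell. Of all genes tested, 18.2% had a negative difference. In the ko model 29.5% of all genes fell and 21.5% rose, and in the DEN model 10.5% rose and 10.9% fell. With the slide block 9 negative differences and the 18 falls in ko tumours passed limma's threshold, and 0 DEN effects (1 rise and 2 falls at an unadjusted p under 0.05). Lss and Sqle moved apart. Lss, which closes the sterol ring (chr10:76015992-76016051, mm9), was at 0.54, 1.49, 1.35 and 0.22 in wt livers and 2.13, 2.10, 2.72, 1.38 and 1.54 in DEN tumours. It was at 1.23, 1.14, 1.0 and 0.81 in ko livers and -1.64, -1.49, -1.29, -1.25 and -0.97 in ko tumours. Ko tumours lay below every other mouse, and DEN tumour mouse 4 lay within the wt liver range. The effects were -2.38 ± 0.29 and 1.07 ± 0.29 (difference -3.45 ± 0.41, adjusted limma p 5e-05), on a liver gap of 0.15. Sqle, the squalene epoxidase before it in the pathway, had -1.97 and 0.90 (adjusted p 0.048 for the latter). The window of 250 bases before the start of Lss (RefSeq, GRCm38.p6, chr10:76531355-76531604, plus strand) is shown with the same letters in capitals, which are part of many promoters of this pathway as background.
Lss: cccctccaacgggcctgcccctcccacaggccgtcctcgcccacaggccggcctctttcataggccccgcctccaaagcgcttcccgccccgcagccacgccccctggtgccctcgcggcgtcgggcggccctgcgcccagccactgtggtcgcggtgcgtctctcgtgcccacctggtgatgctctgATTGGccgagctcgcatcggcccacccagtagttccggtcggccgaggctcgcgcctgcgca

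Among 18 targets of NRF2, the regulator of the response to oxidants, 13 had a negative difference (median -2.21), 10 fell in the ko model and 5 rose in the DEN model. The matching shares over all genes tested were 18.2%, 29.5% and 10.5%. With the slide block 1 negative difference, 6 falls in the ko model and 1 rise in the DEN model passed the threshold. Nqo1, a quinone reductase, was the 1 that moved apart, with effects of -1.60 ± 0.62 (adjusted limma p 0.04) and 2.75 ± 0.62. It was at -0.63, -0.82, -1.12 and -0.67 in wt livers, 1.97, 2.35, 2.44, 0.14 and 2.77 in DEN tumours, 0.17, 0.42, 0.38 and 0.28 in ko livers and -2.55, -2.16, -1.32, 1.29 and -1.71 in ko tumours. Ko tumour mouse 4 lay above all ko livers, against the direction of the other 4.

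Of 18 genes of ERK output, 12 rose in DEN tumours, and 7 rose and 2 fell in ko tumours. The matching shares over all genes tested were 10.5%, 21.5% and 29.5%, so falls in ko tumours were not more frequent in this list. With the slide block 3 rises in DEN tumours and 4 in ko tumours passed limma's threshold, and 0 falls in ko tumours (1 at an unadjusted p under 0.05). The 2 that fell were Dusp6 and Spry4, feedback inhibitors of the ERK pathway, with differences of -2.39 and -4.01, both past the threshold in the DEN model as well (1.49 and 1.91). Fn1, which encodes the matrix protein fibronectin, was the 1 of 22 matrix and stellate markers that moved apart (-0.73 and 0.61), while 16 of the 22 rose in ko tumours.

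Lists without a gene among the 448 differed in strength. Over all genes tested 12.7% had a positive and 18.2% a negative difference. Of 32 mature hepatocyte products 26 had a negative difference (median -2.56), of 12 periportal genes 10 (median -3.91) and of 29 complement and coagulation genes 21 (median -2.33, 1 positive). Of 33 cell cycle genes 24 had a positive difference (median 1.98), of 14 gut epithelium markers 8 (median 4.24), of 25 bile duct and progenitor genes 9 (median 2.02, 2 negative) and of 9 B and plasma cell markers 5 (median 2.95). With the slide block 6 hepatocyte products, 2 periportal genes and 7 complement and coagulation genes passed with a negative difference, and 5 gut epithelium markers and 1 bile duct and progenitor gene with a positive one. Of the cell cycle genes and the B and plasma cell markers 0 passed limma's threshold with it (13 and 0 at an unadjusted p under 0.05). The summed level of the hepatocyte products was 9.72 to 11.30 in ko tumours and 11.96 to 12.65 in DEN tumours, without overlap, and the part of this in the fall of single liver genes was not tested.

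**Figure D5:**
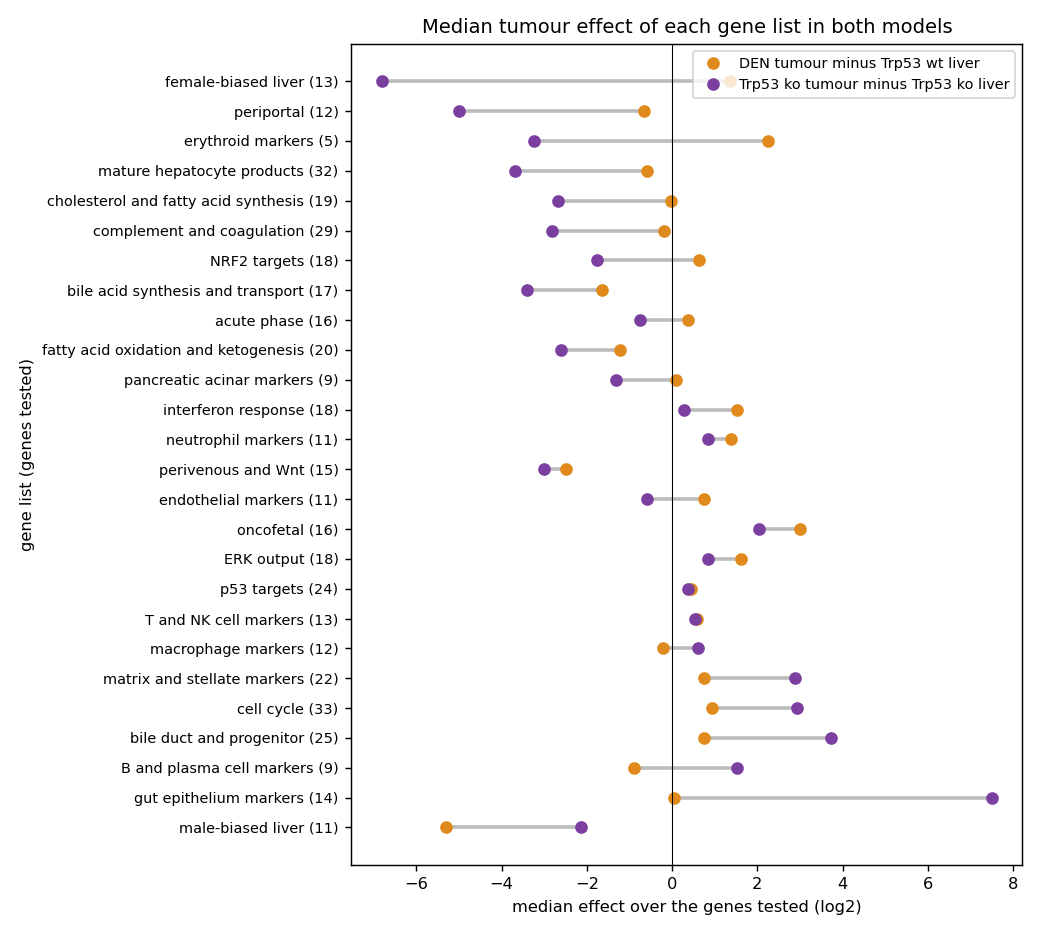
Median tumour effect (log2) over the tested genes of each list, for the DEN model (orange) and the ko model (purple), with the number of genes tested in brackets. Female-biased liver genes and erythroid markers are among several lists with medians on opposite sides of 0, NRF2 targets and B and plasma cell markers being others. Male-biased genes have medians below 0 in both models. In the ko model only 5 of these 11 fell past the threshold, and some were not above background in ko livers.

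For scale, genes that moved the same way in both models could differ as much as the opposite ones. Hamp2, a hepcidin gene, fell by 10.02 in the ko model and by 2.22 in the DEN model, a difference of -7.80, on a liver gap of 6.95. The oncofetal genes Afp and Gpc3 rose by 7.82 and 7.45 in DEN tumours and by 2.16 and 1.93 in ko tumours. Krt20, an intestinal keratin, rose by 11.80 in ko and 6.21 in DEN tumours, and Ubd, a ubiquitin-like protein induced by cytokines, by 8.55 and 2.81. The p53 target Cdkn1a, an inhibitor of the cell cycle, had effects of 4.00 and 4.43, whose difference of -0.43 missed the threshold (adjusted limma p 0.6). That rise rests on the brightest probe. Other Cdkn1a probes had ko and DEN effects of -0.05 and 0.15, and of 0.37 and 0.96.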

How the data were processed

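Each of 21 RNA samples of liver or liver tumour, carrying Cy3, was run on its own one-colour Agilent array. Agilent Feature Extraction 10.7.3.1 made the scanner tables, per the file headers. As deposited, each table holds a background-corrected (processed) intensity for every spot. The authors' deposited table of values is in log2 units, and each of its columns matched its array at a correlation of at least 0.9997. It served as an alternative.

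Outlier spots were removed, spots of a probe averaged as log2 processed intensity, and the 75th percentile of 39429 probes subtracted per array. Probes well above background on at least 4 arrays were kept (30415), and each gene (23717) was represented by its probe of highest mean signal. Coordinates are mm9, from the array files. Names came from a RefSeq table of GRCm38.p6, used for names and promoter windows only. Exon or UTR positions of probes were not used here. The number of mice limits the precision.

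Tumours sharing the number before the T in their title were averaged as 1 mouse, which gave 18 mice. The model in limma 3.58.1 (R 4.3.3) had 4 group means, with two-sided moderated tests and Benjamini-Hochberg adjustment. "At least" folds were set against the lowest signal among probes well above background where the lower group was not above it. The recovery of known changes was tested on simulated data.

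Named genes were, for each opposite pattern, the 15 with the largest difference past the threshold in both effects, with mice of tumour and liver not overlapping, signal well above background on all arrays of the higher groups and a RefSeq symbol; the 5 highest and 5 lowest differences among genes moving the same way; up to 2 members per list and direction; and a fixed set of tumour and p53 genes. Not all of these are printed, and 1 of the 15 that fell in ko and rose in DEN tumours is not reported here. Y-linked genes, Xist and unnamed models (Gm, Rik, LOC and the like) were left out. The members and lists were chosen with earlier results of these data known. A further 11 genes, opposite against both livers, were added after the data were seen. Alternatives covered the background correction, scaling, filter, choice of probe, slide and mouse as blocks, reference liver, scan day and leaving out mice.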

Additional observations from a re-analysis of the deposited data

Results flagged for a closer look

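Both counts of opposite genes, 146 higher in ko and lower in DEN tumours and 302 the other way, are differences between the models under the same contrast, tested gene by gene with limma. So are the differences of effects of 40 named genes, each past the threshold at an adjusted p under 0.05.

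Among genes higher in ko and lower in DEN tumours, the differences were 8.12 for Zbtb7c, 5.76 for Extl1, 5.32 for Scml4, 4.99 for Gna14, 4.66 for Whrn, 4.62 for Nrep, 4.15 for Cadm4 and 4.13 for Rtn1. They were 3.98 for Pim1, 3.78 for Smim6, 3.57 for Gnai1, 3.56 for Zfp979, 3.43 for Atrnl1, 3.40 for Tspyl4 and 3.34 for Col5a3. Among those chosen for holding against both livers they were 3.37 for Efemp1, 3.08 for Sulf2, 2.94 for Lamb3 and 2.58 for Sspn.

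Among genes lower in ko and higher in DEN tumours, the differences were -15.54 for Sult2a2, -13.93 for Sult2a1, -13.68 for Sult2a6, -8.76 for Tafa2, -7.00 for Zdhhc22, -6.31 for Hba-a1 and -6.17 for Nipal1. They were -5.74 for Cyp17a1, -5.66 for Cyp39a1, -5.47 for Arl9, -5.30 for Rasgrp2, -5.03 for Rcan2, -4.67 for Hba-a2 and -4.27 for Nt5e. Among those chosen for holding against both livers they were -4.55 for Fbxw27, -4.06 for Ctcfl, -4.02 for Pramel25, -3.62 for Met, -3.50 for Sult4a1, -2.84 for Alox12b and -2.83 for Ptpn5.

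In 8 of the 160 groups of 4 or 5 mice examined for these genes (5.0%), 1 mouse stood far from the others by Dixon's criterion, which chance alone meets in about 1 of 20 groups. Ko liver mouse 3 gave 4 of the 8. It was the lowest ko liver for Zdhhc22 (-0.10, next 2.22), Hba-a1 (4.78, next 7.54) and Hba-a2 (7.31, next 8.84) and the highest for Ptpn5 (1.41, next 1.19). DEN tumour mouse 1 was highest for Hba-a2 (9.09, next 8.55) and DEN tumour mouse 3 for Met (2.21, next 0.83). Ko liver mouse 4 was highest for Met (-1.0, next -1.31), and ko tumour mouse 1 was lowest for Ctcfl (-5.90, next -5.14).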

How the results depend on the processing

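No paired analysis was possible because the tumours and livers come from different mice and the labels give the groups no shared replicate numbers. With the slide as a random block, the model-specific difference passed the threshold upward in 1.34% of genes and downward in 2.01%, the ko effect in 12.1% and 16.1% and the DEN effect in 1.25% and 0.519%, and the opposite genes numbered 0 and 2. The opposite genes, higher in ko and lower in DEN tumours first, numbered 288 and 569 without the bright slide, 38 and 66 at an adjusted p under 0.01, and 78 and 156 at 2-fold or more in each model. Against the other genotype's liver they numbered 300 and 2254, of which 34 and 140 were among the 146 and 302. Restricted to DEN tumours of scan day 1, an alternative chosen after seeing the data, they numbered 96 and 133, and the DEN effect passed upward in 6.35% of genes. Leaving out 1 mouse at a time gave 91 to 204 and 181 to 441, the lowest counts without wt liver mouse 2 and the highest without ko tumour mouse 4. Without the filter on dim probes 11529 genes fell in ko tumours (37.9% of those tested), against 6996 (29.5%). The other counts of genes, under the alternatives run, stayed within 1.5 times their main value. Normexp with quantile normalization gave 165 and 339 opposite genes, of which 89 and 189 were shared.

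Of the 40 named opposite genes, 36 kept both calls after normexp with quantile normalization (not Nrep, Gnai1, Zfp979 and Extl1), 40 with the authors' values, 2 with the slide block, 17 against the other liver and 31 to 40 when 1 mouse was left out. Among those lost with 1 mouse were Hba-a1, Hba-a2, Rcan2, Rtn1, Nrep, Scml4 and Sulf2. For single genes, 202 of the alternative values outside the fits that left out 1 mouse at a time lost the threshold, 6 gained it and 42 turned sign. Some of these alternatives left out several mice.

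Against wt livers the ko effect became -1.64 for Nrep, -0.33 for Cadm4, -0.60 for Pim1, -1.20 for Gnai1, -2.57 for Zfp979, -0.43 for Tspyl4, -1.22 for Col5a3, 6.37 for Sult2a2, 5.34 for Sult2a1, 7.08 for Sult2a6, 0.69 for Nipal1 and 0.84 for Nt5e. Against ko livers the DEN effect became 0.29 for Zbtb7c, 0.24 for Scml4, 0.49 for Cadm4, 0.26 for Pim1, 0.27 for Gnai1, 1.92 for Zfp979, 0.85 for Col5a3, -6.08 for Sult2a2, -8.12 for Sult2a1, -7.99 for Sult2a6, -1.32 for Tafa2, -0.087 for Cyp17a1, -0.56 for Cyp39a1, -1.48 for Rcan2 and -1.44 for Nt5e. On scan day 1 alone, where the DEN tumours could only be set against ko livers, it was 0.17 for Whrn, 0.89 for Cadm4, 0.19 for Pim1, 0.39 for Gnai1, 1.70 for Zfp979, 0.45 for Col5a3, -5.31 for Sult2a2, -7.63 for Sult2a1, -7.68 for Sult2a6, -1.16 for Tafa2, -0.11 for Nipal1, -0.71 for Cyp17a1, -0.66 for Cyp39a1, -0.57 for Rcan2 and -1.26 for Nt5e. Against the other genotype's liver the sign turned because the livers differ by more than the effect, as the construction of that alternative shows. On scan day 1 the DEN mice changed too, and Whrn and Nipal1 turned sign there but not against ko livers with all DEN mice. For the other changes the cause was not tested. Signal over background limits the genes with a dim lower group.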
